A study of Sus scrofa with 21 samples.

Results

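The nuclear genes for the subunits of respiratory complexes II, III, IV and V were followed in the hearts of newborn pigs with and without a myocardial infarction (MI). Members were the rows of the deposited count table named SDHA, SDHB, SDHC, SDHD or CYC1, or with a name starting with UQCR or ATP5 or with COX4 to COX8 and a letter, that reached 1 CPM (CPM, counts scaled to a common library total) in 2 or more libraries. Of the 25880 rows of the table, 38 fitted by name and 34 were members: 4 of complex II, 4 of complex III, 13 of complex IV and 13 of complex V. The other 4 rows were COX6B2 (1 CPM or more in 1 library, at most 1.32), COX7B2 (at most 0.08 CPM), and COX8H and CYC1, which had no counts in any library. The member nearest the limit was COX4I2, the lowest of whose values without further scaling was 7.09 CPM, and COX6B2 was the nearest row outside it. No row is named UQCRB, COX6B1 or ATP5F1B, so these subunits are not analysed here.

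RNA was sequenced from 21 pigs, 1 library each. Control hearts numbered 13, with 2 each from postnatal day 1 and day 3 and 3 each from day 7, day 14 and day 28. The 8 MI hearts comprised 3 from day 7, 3 from day 14 and 2 from day 28, after a permanent tie of the left descending coronary artery on day 1. MI tissue came from the border zone of ischaemia and control tissue from the same region. The sample titles call the controls naive, while the protocol describes age-matched animals operated on without the tie, and the sources used here do not settle which applies; they are called naive below. All pigs were raised on bovine colostrum and milk, and the labels name no genotype, sex or litter. Total counts per library ranged from 37002909 to 95559841, and on day 7 from 75071994 to 92831231 in MI and from 37002909 to 48321350 in naive hearts. The members took 0.933% to 1.97% of the counts of a library. Of 12 cardiomyocyte markers 10 were expressed in these libraries, while TNNI3 had no counts in any library and TTN has no row, and 4 libraries (MI day 7 replicate 3, naive day 14 replicate 3, MI day 28 replicate 2 and naive day 28 replicate 2) stand apart from the other 17 by under 100 CPM of the unnamed gene ENSSSCG00000035520.

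In the inner mitochondrial membrane, complex II (succinate dehydrogenase) feeds electrons from the citric acid cycle into ubiquinone, complex III passes them to cytochrome c, and complex IV (cytochrome c oxidase) hands them to oxygen. The proton gradient that complexes III and IV help to build drives complex V, the ATP synthase. Complexes III, IV and V each combine nuclear subunits with a few mitochondrially encoded ones, whereas complex II is entirely nuclear. The heart, which beats on ATP made in this way, raises its oxidative capacity around birth, and it uses muscle-specific forms of some complex IV subunits.

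Of the 34 members, 24 could be matched to a gene of the RefSeq annotation of Sscrofa11.1, the build named in the submitters' processing notes (13 of them by an older symbol), and the 250 bases before their annotated starts were read from its genome. Shown are the windows of 4 of the 6 members that were lower in MI hearts over the 3 ages and, for contrast, of ATP5MC2, whose level was close to equal. None of these windows holds an annotated exon of another gene. Each is written 5′ to 3′ on the strand of the gene, with capitals marking matches, on either strand, to 4 short motifs: CATGCGC (a core of NRF1 sites), CCGGAAG (a core of ETS family sites), AAGGTCA (a core of estrogen-related receptor sites) and GGGCGG (a GC box).
ATP5F1A, chr1:95750836-95751085, minus strand: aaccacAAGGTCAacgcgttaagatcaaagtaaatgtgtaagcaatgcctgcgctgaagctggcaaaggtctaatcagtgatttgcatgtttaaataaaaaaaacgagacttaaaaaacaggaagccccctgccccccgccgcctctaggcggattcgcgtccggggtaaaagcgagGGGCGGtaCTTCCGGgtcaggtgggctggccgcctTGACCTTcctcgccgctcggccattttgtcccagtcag
SDHB, chr6:75678112-75678361, minus strand: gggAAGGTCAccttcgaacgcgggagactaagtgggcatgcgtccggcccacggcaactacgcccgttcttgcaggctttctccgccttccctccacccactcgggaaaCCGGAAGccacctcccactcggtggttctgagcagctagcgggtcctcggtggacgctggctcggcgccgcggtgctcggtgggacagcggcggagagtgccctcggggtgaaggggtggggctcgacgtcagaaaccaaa
SDHC, chr4:89169165-89169414, minus strand: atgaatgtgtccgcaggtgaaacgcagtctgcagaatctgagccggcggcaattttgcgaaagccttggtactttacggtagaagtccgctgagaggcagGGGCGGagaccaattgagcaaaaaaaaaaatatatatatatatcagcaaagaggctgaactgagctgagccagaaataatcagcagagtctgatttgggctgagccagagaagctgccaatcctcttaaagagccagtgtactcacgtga
UQCR10, chr14:46783090-46783339, plus strand: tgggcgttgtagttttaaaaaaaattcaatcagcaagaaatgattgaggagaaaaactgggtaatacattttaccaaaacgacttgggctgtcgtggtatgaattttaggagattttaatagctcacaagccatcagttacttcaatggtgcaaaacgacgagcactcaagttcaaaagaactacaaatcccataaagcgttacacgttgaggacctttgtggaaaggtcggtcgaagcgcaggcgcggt
ATP5MC2, chr5:18879934-18880183, minus strand: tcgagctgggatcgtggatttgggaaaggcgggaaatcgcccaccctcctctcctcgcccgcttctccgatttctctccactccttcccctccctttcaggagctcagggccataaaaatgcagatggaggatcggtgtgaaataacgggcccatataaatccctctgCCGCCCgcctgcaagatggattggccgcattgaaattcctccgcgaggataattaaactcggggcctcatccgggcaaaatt
The ATP5F1A window held 2 matches to AAGGTCA, 1 to CCGGAAG and 1 to GGGCGG. The SDHB window held 1 to AAGGTCA and 1 to CCGGAAG, and the UQCR10 window none of the 4. The SDHC window and the ATP5MC2 window shown for contrast had the same matches, 1 to GGGCGG and none to the other motifs. Over the 24 matched members, CCGGAAG was found in 8 windows (33.3%), against 7.81% of 19278 windows of the same length. Those were all windows free of unread bases before complete protein-coding genes placed on chromosomes. AAGGTCA was found in 6 windows (25%), against 3.2% of all windows. CATGCGC was found in 2 windows (8.33%), those of ATP5ME and ATP5PO, against 3.31%, and GGGCGG in 14 (58.3%), against 46%. The windows of SDHA, SDHD, COX7A1, ATP5F1C, ATP5IF1, ATP5MD and ATP5PB, not shown, hold an annotated exon of another gene. Those of SDHD, ATP5F1C and ATP5MD are among the 8 windows with CCGGAAG, and that of SDHD is among the 6 with AAGGTCA. These are counts of letters in windows before annotated starts, and binding was not measured.

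The first question was how an infarct made on the first day of life bears on these genes at each age. Over the 3 ages together, 6 members were lower in MI hearts and none higher (2.07% and 2.36% of all genes tested): ATP5F1A (complex V), SDHB and SDHC (complex II), UQCR10 and UQCRQ (complex III) and COX5A (complex IV). The sizes ran from -0.44 to -0.66 on the log2 scale, or 26.2% to 36.6% below the naive hearts. Of the 34 members 31 had a log2 fold change (MI relative to naive, the scale of all effects below) under 0, with a median of -0.32. In bulk tissue, fewer cells of a type and less RNA per cell cannot be told apart. A gene was called when its adjusted p was under 0.05 (edgeR's quasi-likelihood test on all 21 libraries, Benjamini-Hochberg adjustment over 15359 genes). The 6 calls are 17.65% of the members, and 4.43% of all genes tested were called in either direction; 46.2% of all genes tested had a fold change below 0, and their median was 0.03. The adjusted p-values of the 6 lay between 0.0363 and 0.0493, close to the limit. Without MI day 28 replicate 1, which left 1 MI heart on that day, the median of the members was -0.46. Without MI day 14 replicate 1 the count of members called was 13, among 1082 genes called. Without naive day 14 replicate 1 it was 5 (of 1041), and without MI day 7 replicate 2 it was 2 (of 453). It was 0 without MI day 7 replicate 1 or 3, MI day 14 replicate 2 or 3, MI day 28 replicate 2, naive day 14 replicate 2 or 3, or any 1 of the 3 naive hearts of day 7 or of day 28, and 0 without the 4 libraries that stand apart. The median of the members stayed below 0 in all of these, from -0.24 to -0.46. Where no member was called and each group kept 2 or more hearts, 186 to 484 of all genes were called.

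**Figure D1:**
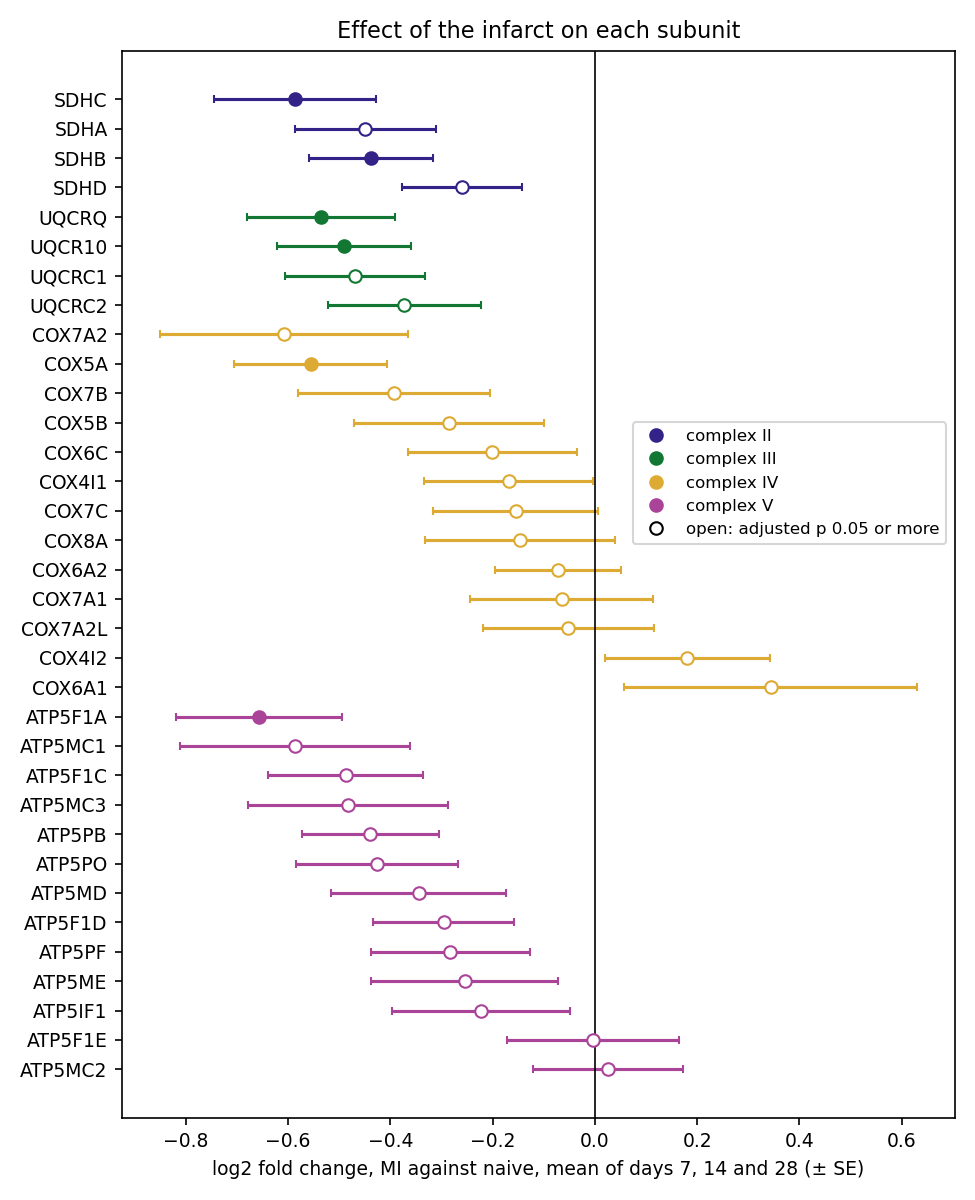
Log2 fold change of each of the 34 subunit genes, MI against naive hearts, averaged over days 7, 14 and 28, with bars of 1 standard error; genes are grouped by complex and filled points have an adjusted p under 0.05. Complex II and III genes lie between -0.26 and -0.59, while complex IV spreads from COX7A2 at -0.61 to COX6A1 at 0.34.

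By complex, the median log2 fold change over the 3 ages was -0.44 in complex II, -0.48 in complex III, -0.34 in complex V and -0.15 in complex IV. All 8 members of complexes II and III, 12 of 13 members of complex V and 11 of 13 members of complex IV were below 0. On the single days, 25 members were below 0 on each of days 7, 14 and 28, and 7 on 2 of the days (COX4I1, COX4I2, COX6A2, COX7A1, COX7A2L, COX8A and ATP5F1E). COX6A1 and ATP5MC2 were above 0 on each day, neither of them past the test.

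On day 7, 6 days after the tie, no member was called. The count was 0 among all 15359 genes too (0%), while DESeq2 called 263 genes and 0 members, and 7 members had an unadjusted p under 0.05, against 12.4% of all genes. Of the members 32 were below 0 (46.8% of all genes), and the median was -0.32. In 16 members every MI heart was below every naive heart, where 10.4% of all genes showed this, and no member showed the reverse (13.9% of all genes). On day 14, edgeR called 0 members and 0 genes (0%), DESeq2 14 genes and 0 members, and no member had an unadjusted p under 0.05 (5.35% of all genes). There 30 members were below 0 (51.1% of all genes) with a median of -0.23. That median was -0.48 without MI day 14 replicate 1, -0.32 without naive day 14 replicate 3, and nearer 0 without each of the other 4 hearts: -0.08 (22 members below 0) without MI replicate 2, -0.12 without MI replicate 3, -0.11 (24 below 0) without naive replicate 1 and -0.14 without naive replicate 2. On day 14 only SDHB had every MI heart below every naive heart (4.49% of all genes), with no member in the reverse order (3.73% of all genes).

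On day 28, 1 member was called lower and none higher (2.38% and 4.47% of all genes tested, 6.86% in either direction) and 13 had an unadjusted p under 0.05 (27% of all genes). Of the members 27 were below 0 (49.6% of all genes), the median was -0.43, and in 18 both MI hearts were below all 3 naive hearts (21.4% of all genes), with no member in the reverse order (16.4% of all genes). Of the 2 MI hearts, replicate 1 had the higher level in 31 of 34 members, by a median ratio of 1.48. Without replicate 2 the median of the members was -0.15 and 22 were below 0; without replicate 1 it was -0.79 and 33 were below 0. Replicate 2 is 1 of the 4 libraries that stand apart, and with these left out the day 28 median was -0.23.

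**Figure D2:**
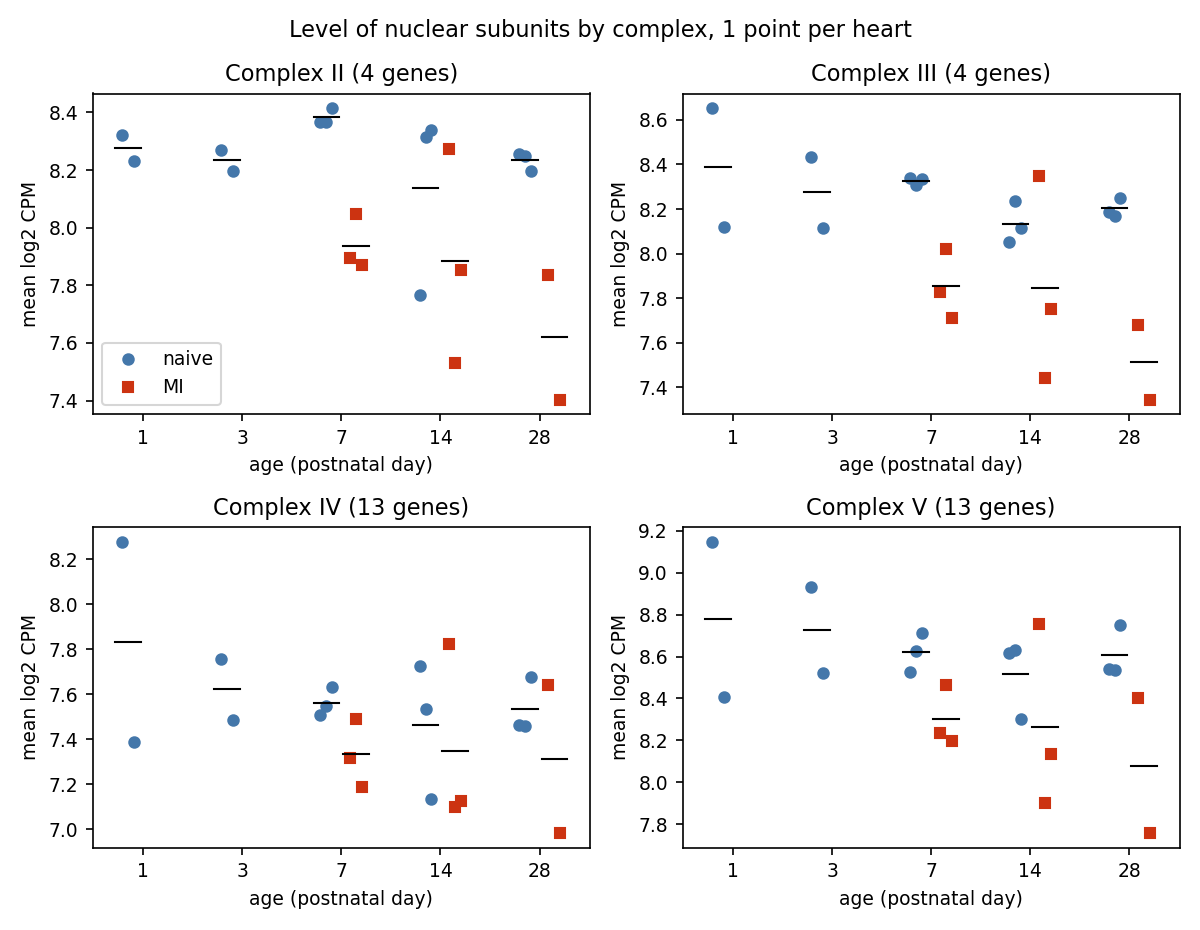
Mean log2 CPM of the members of each complex against postnatal day, 1 point per heart (blue circles naive, red squares MI) with a black bar at the group mean. On days 7 and 28 the MI hearts lie below the naive hearts in complexes II, III and V, and on day 14 they overlap in every complex.

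The mean log2 level of complex II was 7.94 in MI against 8.38 in naive hearts on day 7, 7.89 against 8.14 on day 14 and 7.62 against 8.23 on day 28. Complex III went from 7.86 against 8.33 on day 7 to 7.85 against 8.13 on day 14 and 7.51 against 8.20 on day 28. In complex V the values were 8.30 against 8.62, 8.26 against 8.52 and 8.08 against 8.61. MI and naive hearts did not overlap on days 7 and 28 in these 3 complexes. Complex IV differed less, at 7.33 against 7.56 on day 7 (no overlap), 7.35 against 7.46 on day 14 and 7.31 against 7.53 on day 28, both with overlap.

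Whether the difference itself changed with age was tested with an interaction. Between day 7 and day 14, 0 members passed (0.00651% of all genes tested) and 0 had an unadjusted p under 0.05 (7.07% of all genes); 8 members shifted below 0, against 53.1% of all genes. That count rested on single hearts: it was 25 without MI day 14 replicate 1, where the median shift turned from 0.12 to -0.10, and 1 without naive day 14 replicate 1. Between day 7 and day 28, 0 members passed (0.013% of all genes) and 0 had an unadjusted p under 0.05 (19% of all genes), and 22 members shifted below 0, against 52.9% of all genes. Here the count was 32 without MI day 28 replicate 1 and 13 without MI day 28 replicate 2, where the median turned from -0.14 to 0.13. DESeq2 called 0 members in both, and 27 and 695 of all genes. The largest shift named by rule was in ATP5F1A, -0.74 (SE 0.41, adjusted p = 0.329), from day 7 to day 28, and COX4I2 had the opposite sign, 0.65 (SE 0.40, adjusted p = 0.388). In SDHA the shift was -0.35 (SE 0.34, adjusted p = 0.606) and in UQCRC2 -0.28 (SE 0.37, adjusted p = 0.716). From day 7 to day 14 the members with the smallest p were SDHC at 0.41 (SE 0.37, adjusted p = 0.848), UQCR10 at 0.34 (SE 0.31, adjusted p = 0.848), COX8A at 0.41 (SE 0.44, adjusted p = 0.875) and ATP5PO at 0.36 (SE 0.37, adjusted p = 0.87). The size of the MI effect was not shown to differ between ages in any member.

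**Figure D3:**
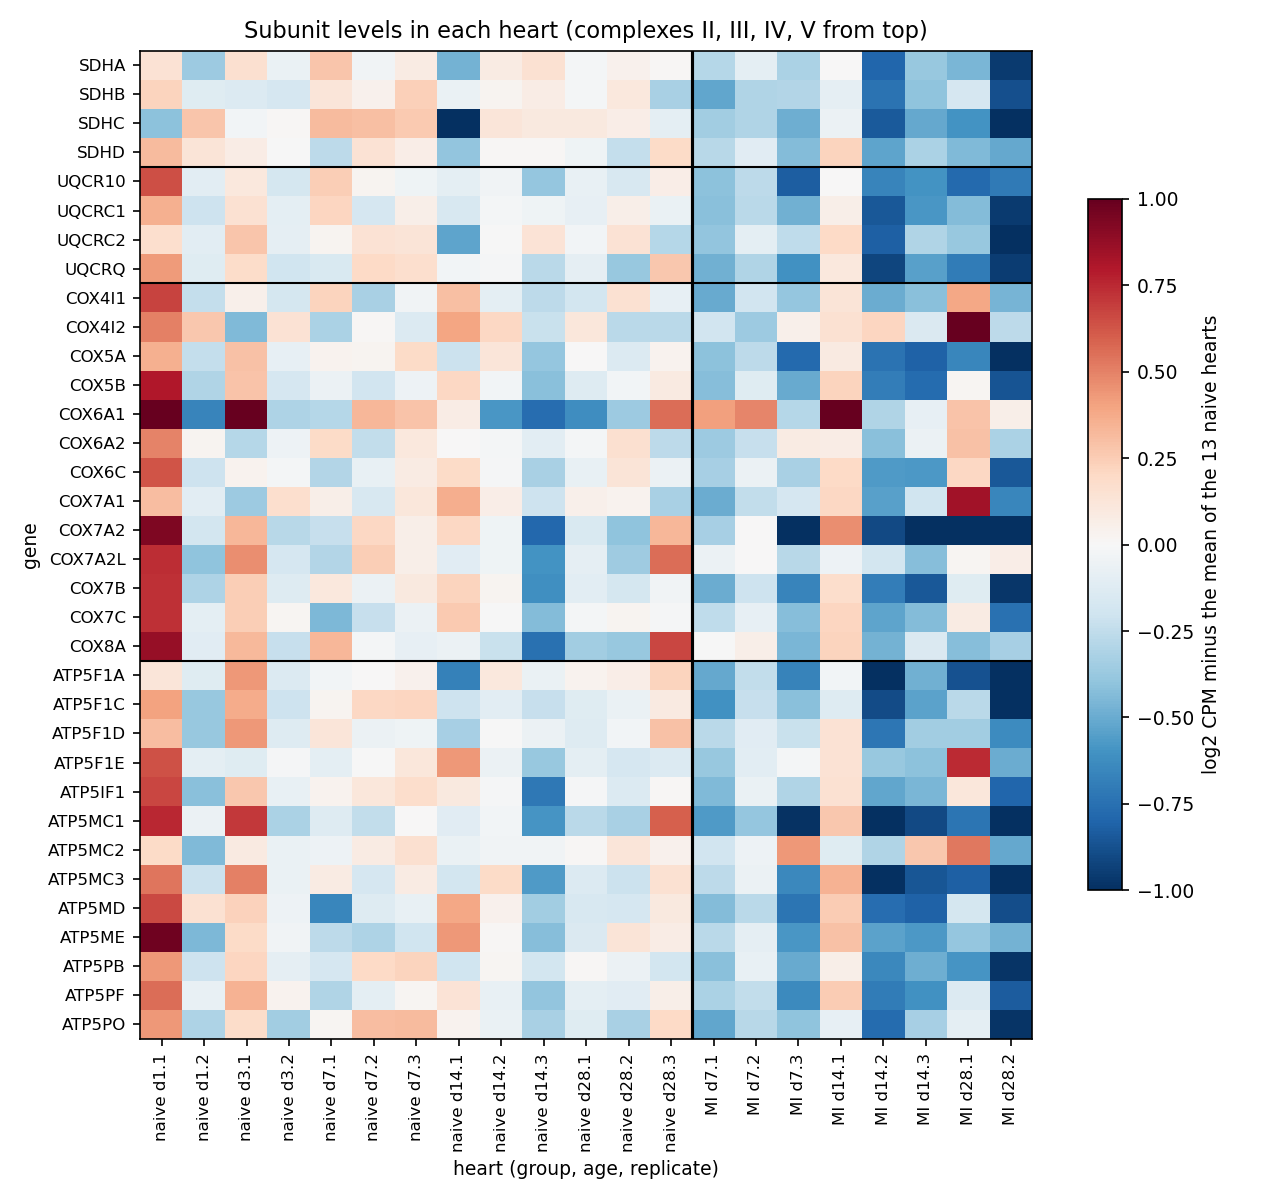
Level of each member (rows, by complex) in each of the 21 hearts (columns, naive left and MI right of the line), as log2 CPM minus the mean of the 13 naive hearts; the colours saturate at 1, which 17 of the 714 values exceed. The first naive heart of day 1 is red in nearly every row, MI day 28 replicate 2 blue in nearly every row, and MI day 14 replicate 1 is closer to the naive hearts than the other 2 MI hearts of that day.

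Complex II has 4 subunits, all of them members. Values of single hearts are given in the order of the replicates. SDHA (ENSSSCG00000020686) is the flavoprotein that oxidises succinate. Its levels on day 7 were 789.7, 899.5 and 773 CPM in MI and 1171, 944 and 1021 CPM in naive hearts, and on day 28 701 and 496 CPM in MI and 949, 994 and 972 CPM in naive hearts. The groups did not overlap on either day, with fold changes of -0.35 (SE 0.23, adjusted p = 0.556) on day 7 and -0.70 (SE 0.26, adjusted p = 0.0998) on day 28. On day 14 the MI values of 966, 558 and 743 CPM lay within and below the naive values of 696, 1019 and 1071 CPM. Averaged over days 7, 14 and 28, SDHA stood at -0.45 (SE 0.14, adjusted p = 0.0687).

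SDHB (ENSSSCG00000020926), the iron-sulfur subunit that carries the electrons away from the flavin, measured 216, 251 and 252 CPM in MI and 336, 318 and 365 CPM in naive hearts of day 7. On day 14 it measured 291, 185 and 234 CPM in MI and 295, 315 and 326 CPM in naive hearts. Both days were without overlap, the nearest values on day 14 being 290.9 and 294.9 CPM. On day 28 the MI values of 275 and 168 CPM overlapped the naive values of 304, 333 and 246 CPM through MI replicate 1. Averaged over the 3 ages, SDHB stood at -0.44 (SE 0.12, adjusted p = 0.0493), the weakest of the 6 calls.

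SDHC (ENSSSCG00000030318) and SDHD (ENSSSCG00000015034) anchor the enzyme in the membrane and form the ubiquinone site. SDHC measured 120.1, 124 and 109 CPM in MI and 190.5, 189 and 183 CPM in naive hearts of day 7, a wide gap between tight groups. On day 28 it measured 101 and 73.9 CPM in MI and 164, 160.4 and 143 CPM in naive hearts, again with no overlap. On day 14 the lowest SDHC value was in a naive heart, 75.7, 166 and 164 CPM over the 3 naive against 147, 85.7 and 107 CPM over the 3 MI hearts. The fold changes were -0.67 (SE 0.26, adjusted p = 0.32) on day 7, -0.83 (SE 0.30, adjusted p = 0.0911) on day 28 and -0.59 (SE 0.16, adjusted p = 0.0459) over the 3 ages. SDHD overlapped on day 7, at 157, 176 and 140.5 CPM in MI and 158, 210 and 199 CPM in naive hearts, and separated on day 28, at 140.1 and 133 CPM against 185, 161 and 217 CPM. Its effect over the 3 ages was -0.26 (SE 0.12, adjusted p = 0.197).

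In complex III all 4 members had every MI heart below every naive heart on days 7 and 28. UQCRC1 (ENSSSCG00000011356) and UQCRC2 (ENSSSCG00000007845) are the core proteins on the matrix side. UQCRC1 measured 601, 669 and 576 CPM in MI and 935, 718 and 837 CPM in naive hearts of day 7, and 596 and 416 CPM against 762, 838 and 767 CPM on day 28. UQCRC2 measured 358, 441 and 394 CPM in MI and 481, 521 and 516 CPM in naive hearts of day 7, and 362 and 230.2 CPM against 462, 522 and 388 CPM on day 28. Both genes overlapped on day 14. As a mean of the 3 ages, UQCRC1 stood at -0.47 (SE 0.14, adjusted p = 0.0595) and UQCRC2 at -0.37 (SE 0.15, adjusted p = 0.152), neither past the test.

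UQCR10 (ENSSSCG00000024550) and UQCRQ (ENSSSCG00000014289) are small membrane subunits, and both were lower in MI than in naive hearts over the 3 ages together. UQCR10 measured 136, 151 and 102 CPM in MI and 214, 184 and 175 CPM in naive hearts of day 7. On day 28 it measured 105 and 111 CPM in MI and 171, 162 and 189 CPM in naive hearts, both MI hearts being close together. On day 14 MI replicate 1, at 180.7 CPM, was above all 3 naive hearts, at 169, 176 and 138 CPM, while the other 2 MI hearts were at 114 and 119 CPM. The effect over the 3 ages was -0.49 (SE 0.13, adjusted p = 0.0455). UQCRQ measured 91.2, 103 and 83.8 CPM in MI and 114, 146 and 143 CPM in naive hearts of day 7, and 78.2 and 65.98 CPM against 119.8, 97.6 and 154 CPM on day 28. Its effect over the 3 ages was -0.54 (SE 0.14, adjusted p = 0.0459). The catalytic subunit cytochrome c1 (CYC1) has a row without counts, and the Rieske protein UQCRFS1 and the small subunit UQCR11 have rows without a name in the deposited table, so they are not members. Matched by gene ID in a reference table of names, UQCRFS1 had an effect over the 3 ages of -0.46 (SE 0.14, adjusted p = 0.0614) and UQCR11 of -0.27 (SE 0.17, adjusted p = 0.362).

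Complex IV was the most mixed. COX5A (ENSSSCG00000024316), a subunit on the matrix side, measured 332, 367 and 257 CPM in MI and 451, 449.7 and 503 CPM in naive hearts of day 7. On day 28 it measured 281 and 204 CPM in MI and 443, 400.2 and 452 CPM in naive hearts. The groups did not overlap on either day, and on day 14 they did, at 468, 264 and 251 CPM in MI and 379, 479 and 338 CPM in naive hearts. COX5A was the only called member of complex IV over the 3 ages, at -0.56 (SE 0.15, adjusted p = 0.0455). On day 28 alone it was at -0.83 (SE 0.28, adjusted p = 0.0767) by edgeR, and DESeq2 called it there. Its partner COX5B (ENSSSCG00000008195), which binds zinc, overlapped on all 3 days and had an effect of -0.29 (SE 0.19, adjusted p = 0.377).

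COX4I1 (ENSSSCG00000029034), the common form of the largest nuclear subunit, measured 1475 and 817 CPM in the MI and 993, 1249 and 1067 CPM in the naive hearts of day 28. The MI hearts were the highest and the lowest of the 5. COX4I2 (ENSSSCG00000038384), the form known from lung and from oxygen sensing, was at 21.04 and 8.78 CPM in MI and 11.4, 8.72 and 8.75 CPM in naive hearts of that day. Only MI replicate 1 stood out, and the day 28 effect of 0.63 (SE 0.30, adjusted p = 0.184) became a call higher when MI replicate 2 or the 4 libraries that stand apart were left out. COX6C, COX7B and COX7C, further small structural subunits, were at -0.20, -0.39 and -0.15 over the 3 ages with adjusted p of 0.495, 0.219 and 0.604, and COX7A2L, a supercomplex assembly protein related to COX7A, at -0.05 with 0.886. COX8A, a small membrane subunit, overlapped on all 3 days and stood at -0.15 (SE 0.19, adjusted p = 0.679).

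COX6A2 (ENSSSCG00000036789), the heart and muscle form of subunit 6A, measured 309.7 and 203 CPM in MI and 249, 282 and 211 CPM in naive hearts of day 28, with an effect over the 3 ages of -0.07 (SE 0.12, adjusted p = 0.769). COX6A1 (ENSSSCG00000039265), its liver-type counterpart, was the most variable member, with a coefficient of variation of 44.1% over the 21 libraries. It measured 113, 45.97 and 53.4 CPM in MI and 59.6, 37.8 and 33.4 CPM in naive hearts of day 14, and its effect over the 3 ages was 0.34 (SE 0.29, adjusted p = 0.502). COX7A1 (ENSSSCG00000037792), the heart and muscle form of 7A, measured 339.5 and 120.2 CPM in MI and 196, 194 and 152 CPM in naive hearts of day 28, the MI hearts again lying on either side. COX7A2 (ENSSSCG00000004480), the widely expressed form, measured 61.9 and 55.01 CPM in MI and 128, 108 and 179 CPM in naive hearts of that day, without overlap, a difference of -1.24 (SE 0.46, adjusted p = 0.102). COX6A2 had the lowest coefficient of variation of all members, 16.4%, followed by ATP5MC2 at 17.5%, while COX7A2 followed COX6A1 at 40.9%.

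In complex V, ATP5F1A (ENSSSCG00000004499), the alpha subunit of the catalytic F1 head, was the furthest below naive hearts over the 3 ages together. It measured 1800, 2166 and 1620 CPM in MI and 2515, 2578 and 2650 CPM in naive hearts of day 7, and 2527, 1206 and 1843 CPM against 1607, 2759 and 2455 CPM on day 14. On day 28 it measured 1407 and 992 CPM in MI and 2628, 2693 and 2995 CPM in naive hearts. The MI hearts were below the naive hearts on days 7 and 28 and overlapped them on day 14, when naive replicate 1 was low. The effect over the 3 ages was -0.66 (SE 0.16, adjusted p = 0.0363). On day 28 it was the 1 member called, at -1.21 (SE 0.31, adjusted p = 0.0347), a value of -0.95 to -1.46 with each of the 5 hearts left out. Of those it was called only without MI replicate 1, with adjusted p-values from 0.036 to 0.145.

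No other part of the F1 head or its stalks passed the test. Over the 3 ages the gamma subunit ATP5F1C of the central stalk was at -0.49 (SE 0.15, adjusted p = 0.0715) and the delta subunit ATP5F1D at -0.30. The peripheral stalk subunits ATP5PB, ATP5PO and ATP5PF were at -0.44, -0.43 and -0.28, with adjusted p of 0.0673, 0.122 and 0.292. ATP5F1E, the epsilon subunit, stood at -0.003, and its day 28 values of 488 and 206 CPM in MI enclosed the naive values of 272, 259 and 265 CPM. ATP5ME and ATP5MD, small membrane subunits, were at -0.25 and -0.34. ATP5IF1 (ENSSSCG00000027072), the inhibitor of ATP hydrolysis by the enzyme, measured 248, 323 and 275 CPM in MI and 346, 365 and 381 CPM in naive hearts of day 7, without overlap, and stood at -0.22 (SE 0.17, adjusted p = 0.472) over the 3 ages.

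ATP5MC1, ATP5MC2 and ATP5MC3 encode the same mature c subunit of the membrane ring with different import sequences, so reads in the shared part may have been split or dropped in counting, and their values are uncertain to that extent. On day 28 ATP5MC1 (ENSSSCG00000017544) measured 201 and 144 CPM in MI and 276, 266 and 504 CPM in naive hearts. ATP5MC3 (ENSSSCG00000015973) measured 244 and 191 CPM in MI and 389.7, 369 and 478 CPM in naive hearts. Both were without overlap on that day. ATP5MC2 (ENSSSCG00000033368) measured 549 and 266 CPM in MI and 384, 414 and 392 CPM in naive hearts, where the MI hearts lay on either side. Over the 3 ages the effects were -0.59 (SE 0.23, adjusted p = 0.135) for ATP5MC1, -0.48 (SE 0.20, adjusted p = 0.153) for ATP5MC3 and 0.03 (SE 0.15, adjusted p = 0.936) for ATP5MC2.

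Because a ratio of 2 genes within a library does not depend on how libraries are scaled, 5 isoform pairs were compared as log2 ratios of their counts, not corrected for length. Labels were exchanged within each day (exact permutation test over 4000 arrangements, two-sided). ATP5MC1 relative to ATP5MC2 differed by -0.60 on average (MI minus naive) (exact permutation p = 0.0315, adjusted over the 5 pairs 0.15), with differences of -0.52, -0.36 and -0.92 on days 7, 14 and 28. COX4I2 relative to COX4I1 differed by 0.33 (exact permutation p = 0.06, adjusted 0.15), COX7A1 relative to COX7A2 by 0.52 (exact permutation p = 0.1225, adjusted 0.167) and COX6A2 relative to COX6A1 by -0.43 (exact permutation p = 0.1333, adjusted 0.167). ATP5MC1 relative to ATP5MC3 differed by -0.09 (exact permutation p = 0.2985). No pair passed the adjustment. Without MI day 14 replicate 1 the ATP5MC1 to ATP5MC2 difference was -0.76, with an adjusted p of 0.01 by the same exact permutation test. That heart ran the other way, at 0.20 against -1.07 and -1.36 in MI replicates 2 and 3 of that day. The pass rested on leaving it out.

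**Figure D4:**
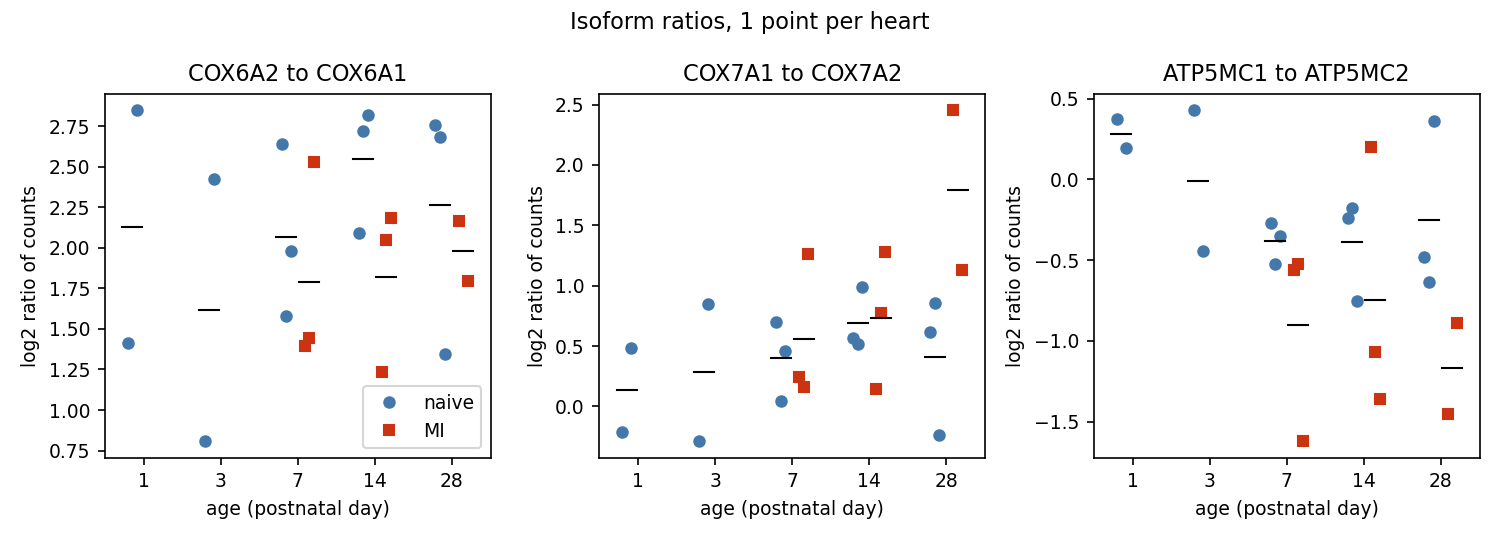
Log2 ratio of counts of 3 isoform pairs against postnatal day, 1 point per heart (blue circles naive, red squares MI) with a black bar at the group mean. The 2 MI hearts of day 28 have the highest COX7A1 to COX7A2 ratio of that day, at 2.45 and 1.13, and lie lowest in ATP5MC1 to ATP5MC2, at -1.45 and -0.89 (replicates 1 and 2).

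The COX7A1 to COX7A2 difference came mainly from day 28, where it was 1.38, against 0.15 on day 7 and 0.04 on day 14. The 2 MI values of that day, 2.45 and 1.13, lay above the naive range of -0.24 to 0.85. The COX6A2 to COX6A1 ratio ranged from 1.39 to 2.53 in MI and from 1.58 to 2.64 in naive hearts of day 7, so that single hearts within a group differed by more than the groups.

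The naive hearts alone gave the course over the first 4 weeks, an age at which the pig heart matures. No member was called on day 7 against day 1, on day 28 against day 7, or for a slope per doubling of age over the 13 naive hearts, and neither was any other gene by edgeR (0%). Members with an unadjusted p under 0.05 numbered 1, 0 and 0, against 5.44%, 7.18% and 6% of all genes, and DESeq2 called 0 members in each, and 12, 57 and 10 genes. For the slope, 32 members were below 0 (48.7% of all genes) with a median of -0.06 per doubling, which rested on naive day 1 replicate 1: without that heart the median was -0.005 and 20 members were below 0. That heart held the highest value of 24 of the 34 members. It exceeded the other naive heart of day 1 in 33 members, by a median ratio of 1.63 and up to 3.75 in COX6A1. On day 7 against day 1, 25 members were below 0 (50.8% of all genes) and the median was -0.23, and 0.22 without naive day 1 replicate 1, so even the direction depended on it. On day 28 against day 7, 23 members were below 0 (47.1% of all genes), with a median of -0.06.

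Among members named by rule for age, ATP5MD stood at -0.69 (SE 0.31, adjusted p = 0.912) and COX7C at -0.61 (SE 0.30, adjusted p = 0.92) on day 7 against day 1, with SDHC at 0.32 (SE 0.29, adjusted p = 0.944) and UQCR10 at -0.23 (SE 0.24, adjusted p = 0.957). On day 28 against day 7 the values were -0.21 (SE 0.20, adjusted p = 0.861) for SDHB, -0.29 (SE 0.26, adjusted p = 0.852) for ATP5PO, 0.24 (SE 0.27, adjusted p = 0.891) for COX7C and -0.13 (SE 0.22, adjusted p = 0.931) for UQCR10. The slopes per doubling were -0.06 (SE 0.03, adjusted p = 0.852) for SDHD, -0.08 (SE 0.04, adjusted p = 0.83) for UQCR10, -0.18 (SE 0.10, adjusted p = 0.83) for COX6A1 and -0.08 (SE 0.04, adjusted p = 0.828) for ATP5PF. In none of these did the change exceed the spread between hearts by this test. COX7A1 measured 234 and 176 CPM on day 1, 147 and 212 CPM on day 3, 197, 169 and 204 CPM on day 7, 243, 198 and 164 CPM on day 14 and 196, 194 and 152 CPM on day 28, with every age overlapping the next. COX7A2 measured 271 and 126 CPM, 179.5 and 118 CPM, 121, 164 and 148 CPM, 164, 138 and 82.8 CPM and 128, 108 and 179 CPM at the same ages, also overlapping. The ratio of the muscle to the common form had a Pearson r of 0.30 with log2 age (permutation p = 0.314) and a Spearman rho of 0.34 (permutation p = 0.2571), and r was 0.16 without the 2 hearts of day 1. The strongest of the 5 pairs was ATP5MC1 to ATP5MC2, with r of -0.50 (permutation p = 0.0833, adjusted 0.416) and rho of -0.44 (permutation p = 0.1313, adjusted 0.569). Without the 2 hearts of day 1 its r was -0.19, and without naive day 28 replicate 3 it was -0.75 (permutation, adjusted p = 0.0254), so the relation rested on single hearts at both ends.

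The levels of the members can be set beside those of cell type markers. On day 7 the 10 cardiomyocyte markers were not lower in MI hearts: 3 were below 0, their median was 0.06, and their summed level was 70320 to 72510 CPM with MI and 58630 to 74760 CPM without. Relative to the mean of these markers, complex II of day 7 stood at -3.82 to -3.66 with MI and at -3.33 to -3.09 without, and complex III at -3.98 to -3.68 against -3.35 to -3.15, without overlap. On day 28 all 10 cardiomyocyte markers were below 0, with a median of -0.79, and 2 were called lower (2.38% of all genes tested). Their summed level was 44040 and 46430 CPM in MI against 73560 to 84070 CPM in naive hearts. Relative to them, complex II was at -3.46 and -3.39 in the MI hearts of day 28, above the naive range of -3.80 to -3.54, and complex III at -3.61 and -3.45 against -3.88 to -3.57. On day 14, 9 of the 10 markers were below 0, with a median of -0.40 where the members had -0.23, and none was called. Over the 3 ages, where the 6 members were called, all 10 markers were below 0 and 1 was called lower (2.07% of all genes tested). Their median was -0.38 against -0.32 in the members. The median difference of all 34 members was thus no larger than that of these markers on days 14 and 28 and over the 3 ages. By complex, the median over the 3 ages was below that of the markers in complexes II (-0.44) and III (-0.48), and not in V (-0.34) and IV (-0.15). The 6 called members, at -0.44 to -0.66, were each below the marker median. They were picked for their effects in these same data, so that comparison carries no weight. Single markers reached -0.69. On day 7 the median was -0.32 in the members, of which 0 were called, and 0.06 in the markers. The difference between these medians was not tested. The part of cell content in the members' levels was not tested.

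**Figure D5:**
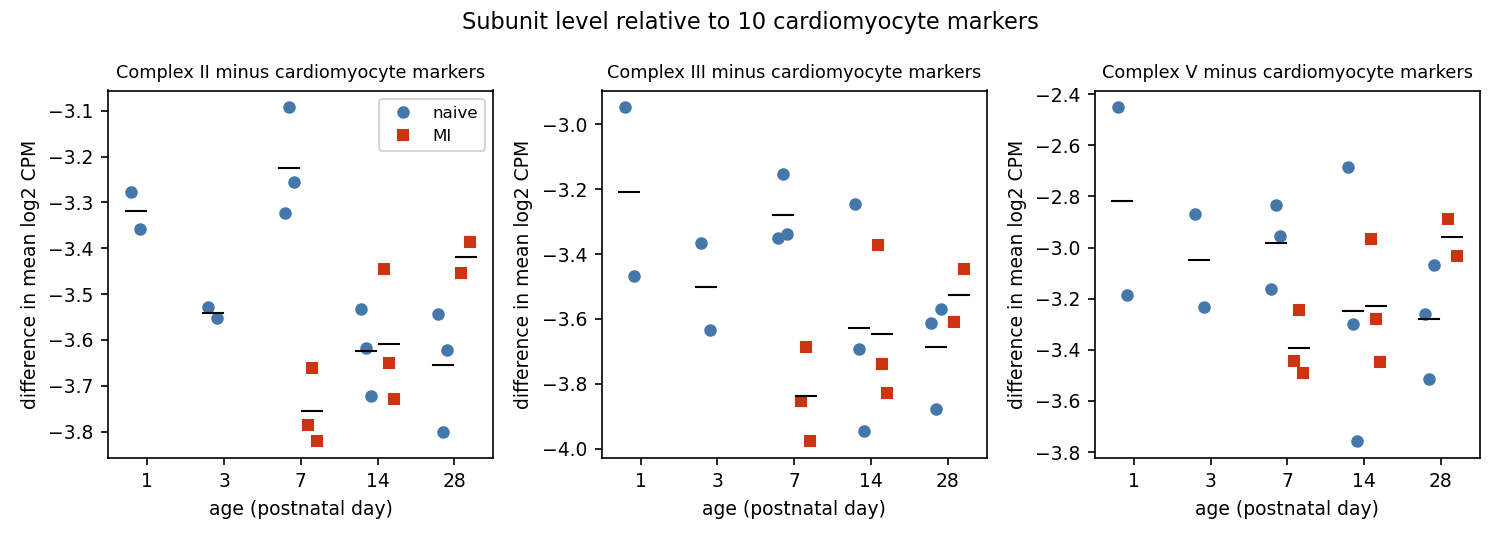
Mean log2 CPM of the members of complexes II, III and V minus the mean log2 CPM of 10 cardiomyocyte markers, against postnatal day, 1 point per heart (blue circles naive, red squares MI) with a black bar at the group mean. The 3 MI hearts of day 7 lie below the naive hearts in each panel, and the 2 MI hearts of day 28 do not.

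Markers of other cell types also moved on day 28, when 4.47% of all genes tested were called higher. Of 8 macrophage markers 7 were called higher, with a summed level of 220.4 and 3410 CPM in the MI hearts against 60.6 to 306.8 CPM in naive hearts. Of 8 fibroblast markers 1 was called higher, at a summed 1432 and 23890 CPM against 3134 to 6841 CPM. Of 4 adipocyte markers 3 were called higher, at 125.6 and 2.63 CPM against 1.40 to 1.66 CPM. Of 5 smooth muscle markers 4 were called higher on day 28 (median 1.91), at a summed 841.9 and 321.8 CPM in MI against 174.9 to 472.4 CPM in naive hearts. Over the 3 ages 3 of them were called higher (2.36% of all genes tested). Of 7 lymphocyte markers 3 were called higher on day 28 (median 2.28), at 6.94 and 177 CPM against 4.13 to 13.4 CPM. No endothelial (6), erythroid (4), skeletal muscle (3) or mitotic (5) marker was called on day 28. The high value of each of the macrophage, fibroblast, adipocyte and lymphocyte lists came from a single MI heart, but not the same one. It was replicate 2 for macrophages, fibroblasts and lymphocytes and replicate 1 for adipocytes. On day 7 no marker of any list was called. The summed levels overlapped for macrophages, at 208.2 to 406.4 CPM with MI and 332.8 to 371.2 CPM without, and for fibroblasts, at 1263 to 7013 CPM against 6177 to 7064 CPM. Those of the erythroid markers did not, at 68.3 to 117.2 CPM with MI and 170.8 to 451.4 CPM without. The day 7 medians were -1.22 for erythroid (4 of 4 below 0), -1.14 for mitotic (5 of 5), -0.79 for fibroblast (6 of 8) and 0.62 for smooth muscle markers (1 of 5 below 0). The part of these cells in the members' levels was not tested.

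Heart by heart, the complexes varied together. After subtracting group means, complexes IV and V correlated at r = 0.963 over the 21 libraries, III and V at 0.92, and V and the 31 complex I subunits at 0.987, while II and V correlated at 0.58. Complex II varied most closely with the cardiomyocyte markers (0.889), which IV hardly followed (0.131). The share of a library's total counts held by the 13 mitochondrially encoded genes together, on the log2 scale, correlated at 0.11 with complex V. These are descriptions of libraries that share depth, scaling and tissue sampling.

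Of the nuclear complex I subunits, 31 of 31 were below 0 over the 3 ages, with a median of -0.41 and 5 called lower (2.07% of all genes tested). The 13 mitochondrially encoded genes, 3 of which are complex IV and 2 complex V subunits, were not called on any day or over the 3 ages. Of all genes tested, 0% were called on day 7 and on day 14, 6.86% on day 28 and 4.43% over the 3 ages. Their median was -0.11 over the 3 ages, and on day 28 it was 0.30, with 4 of 13 below 0, where the nuclear members had a median of -0.43. Whether the nuclear and the mitochondrial genes differed in their response was not tested.

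Of the 31 measured assembly factors of complexes II to V, 4 were called lower and none higher on day 28 (2.38% and 4.47% of all genes tested). Over the 3 ages 4 were called lower (2.07% of all genes tested). On day 28 these were TACO1, a translational activator of COX1, at -1.02 (SE 0.22, adjusted p = 0.0218), COX15, needed for heme A, at -1.06 (SE 0.25, adjusted p = 0.0285), FASTKD2, a mitochondrial RNA-binding protein, at -0.90 (SE 0.23, adjusted p = 0.0312), and UQCC1, a complex III assembly factor, at -0.94 (SE 0.26, adjusted p = 0.0411), named to complete the count after the values were seen, as is COX16 below. Over the 3 ages COX15 was at -0.53 (SE 0.13, adjusted p = 0.0375), UQCC1 at -0.54 (SE 0.13, adjusted p = 0.0379) and FASTKD2 at -0.47 (SE 0.12, adjusted p = 0.04), and the fourth was COX16 at -0.55 (SE 0.15, adjusted p = 0.0477). The median of the list was -0.45 on day 28 and -0.21 over the 3 ages, with 23 and 25 of 31 below 0. Of 15 genes for cytochrome c and ubiquinone synthesis, 2 were called lower over the 3 ages (2.07% of all genes tested). These were PDSS2 and COQ6, enzymes of ubiquinone synthesis, at -0.68 (SE 0.13, adjusted p = 0.0144) and -0.56 (SE 0.11, adjusted p = 0.0178). On day 28 2 of the 15 were called lower (2.38% of all genes tested), with a list median of -0.66. They were PDSS2 at -1.06 (SE 0.24, adjusted p = 0.0239) and HCCS, which attaches heme to cytochrome c, at -1.09 (SE 0.32, adjusted p = 0.0496). Calls outside the members were not followed gene by gene through the alternative fits. The 1053 genes called on day 28 became 169 without naive replicate 2, 17 without naive replicate 3 and 2 with the 2 groups alone, but 1120 with RLE scaling and 2183 with DESeq2.

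Of 22 regulators of respiratory genes, 2 were called higher over the 3 ages and none lower (2.36% and 2.07% of all genes tested), with a median of -0.02. NRF1, a transcription factor for nuclear respiratory genes, was higher by 0.41 (SE 0.10, adjusted p = 0.0314), and MYC, a growth regulator, by 1.20 (SE 0.23, adjusted p = 0.0172). MYC was also called on day 28, at 1.80 (SE 0.43, adjusted p = 0.0279), when 4.47% of all genes tested were called higher. The coactivator PPARGC1A was at -1.04 on day 28 (SE 0.33, adjusted p = 0.0595), and ESRRA, an estrogen-related receptor, at -0.43 (SE 0.41, adjusted p = 0.515), chosen for mention after their values were seen. GABPA, an ETS family factor of respiratory genes, was at 0.01 over the 3 ages (SE 0.09, adjusted p = 0.981) and was chosen likewise.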

How the data were processed

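RNA from 21 pig hearts was measured, and the deposited values are whole-number counts per Ensembl gene. The submitters' processing notes name Trim Galore, STAR 2.5.2, HTSeq 0.6.1, DESeq2 and the build Sscrofa11.1. They give no annotation release or strand setting, so reads of overlapping genes on opposite strands and of near-identical copies are uncertain. Each library is a separate pig, matched by pig number. Of 25880 genes, 15359 passed filterByExpr of edgeR 4.0.16, all 34 members among them. A model with 1 mean per group (8 groups, 13 residual degrees of freedom, biological coefficient of variation 0.37) was fitted with TMM scaling and glmQLFit, and contrasts were tested two-sided with edgeR's quasi-likelihood test. The slope fit used the 13 naive libraries (11 residual degrees of freedom). Standard errors were derived from the F statistic. CPM values use TMM-scaled library sizes. Isoform ratios used 0.5 added counts, exact permutations, and 100000 resamples for age.

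Named were, per comparison and complex, the 4 called members of lowest adjusted p or, with none called, the 1 of lowest p, a fixed set of levels and isoform pairs, the 2 most and 2 least variable members, and up to 3 called genes per other list; members, lists and the 4 libraries that stand apart were chosen with earlier results of these data known. Alternatives were DESeq2 1.42.0, RLE scaling, no low-count filter, no mitochondrial genes, a term for or removal of the 4 libraries, the 2 groups alone, a linear age scale, a prior count of 2 and leaving out each library. Libraries of a group differed by 54.3 to 964 times the counting variance (chi-square per degree of freedom, 18 pairs), so none was a copy. The fits were tested on simulated data. R 4.3.3, Python 3.11.15, scipy 1.17.1 and matplotlib 3.10.9 were used.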

Additional observations from a re-analysis of the deposited data

How the results depend on the processing

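The median fold change of the members stayed below 0 on days 7, 14 and 28 and over the 3 ages in every alternative run, while the calls were less stable. The count of 6 members over the 3 ages among 681 genes called became 10 of 1639 with DESeq2, 4 of 657 with RLE scaling, 2 of 518 with a term for the 4 libraries that stand apart, 1 of 458 with no filter on low counts and 0 of 415 without those libraries. It stayed at 6 (of 675) without the mitochondrial genes and ranged from 0 to 13 with 1 library left out, with 186 to 1082 of all genes called. ATP5F1A kept its call over the 3 ages in 5 of the 6 other settings, but in only 4 of the 17 fits with 1 library left out. UQCRQ kept its call in 2 of the 6 settings and in 1 of the 17 fits. The count of 1 on day 28 became 2 with DESeq2 (ATP5F1A and COX5A), 0 with the 2 groups alone, and 0 to 1 with 1 library left out; it was 0 without naive replicate 1, 2 or 3, and without MI replicate 2 or without the 4 libraries the 1 call was COX4I2, as higher. The isoform difference of ATP5MC1 to ATP5MC2 between MI and naive hearts ranged from -0.76 to -0.48 with 1 library left out, and its r with age from -0.75 (without naive day 28 replicate 3, permutation, adjusted p 0.0254) to -0.36. The direction turned in the values that follow, and no turned value with a test passed it. The median over the members, which has no test, went from -0.23 to 0.22 for naive day 7 against day 1 without naive day 1 replicate 1, from -0.06 to 0.02 for naive day 28 against day 7 with the term for the 4 libraries, and from 0.12 to -0.10 for day 14 minus day 7 without MI day 14 replicate 1. For day 28 minus day 7 it went from -0.14 to 0.13 without MI day 28 replicate 2 and to 0.07 without the 4 libraries. The r of COX4I2 to COX4I1 with age ranged from -0.26 to 0.12. The day 28 minus day 7 difference of the MI effect ranged from -0.057 to 1.20 in COX4I2 and from -0.59 to 0.067 in UQCRC2, and was 0.16 in UQCRC2 without the 4 libraries. UQCR10 on day 7 against day 1 ranged from -0.57 to 0.21. The causes were not tested. No paired analysis was possible because the labels give no replicate number shared between groups. With 2 or 3 pigs per group, small differences were not detectable.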
